A study of Homo sapiens with 14 samples.

Results

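The comparison was between FASN knockdown cells pre-exposed to cigarette smoke medium and FASN knockdown cells kept in regular medium, both grown as xenografts in mice. Its libraries were chosen by title: 4 libraries labelled FASN knockdown with smoke and 3 labelled FASN knockdown, 7 of the 14 libraries of the series. All came from UMUC3, a human bladder cancer cell line. The smoke medium (CSM) was used at 10% before engraftment, and the tumours themselves were not exposed. The other 7 libraries, from UMUC3 cells with a control short hairpin RNA (3 from regular medium and 4 after CSM), served as a side comparison. The labels give neither the knockdown vector, the number of clones, the length of exposure, the host strain nor the number of mice, and each p-value below therefore reflects variation among libraries, part of which may be technical.

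FASN encodes fatty acid synthase, which builds palmitate from acetyl-CoA and malonyl-CoA in the cytosol. Its transcription is driven mainly by SREBP1, while the related factor SREBP2 drives cholesterol synthesis, and both are released from the endoplasmic reticulum when membranes run short of sterols. Malonyl-CoA also inhibits CPT1A, the gate through which long-chain fatty acids enter mitochondria for oxidation. Cigarette smoke carries ligands of the aryl hydrocarbon receptor and oxidants that act on the NRF2 pathway, and bladder cancer is among the cancers linked to smoking.

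Summed counts ran from 15810287 (regular-medium replicate 2) to 42612442 (CSM replicate 4). The 7 libraries were alike in kind: KRT8, KRT18, VIM and CDH2 were all above 69 CPM (counts scaled to the library totals with edgeR's TMM factors), VIM ranged from 1190 to 2770 CPM, and EPCAM, UPK2, UPK3A and KRT20, markers of epithelium and differentiated urothelium, had at most 3 counts in any library. Other epithelial and urothelial markers were detected, with UPK1B at 1.37 to 6.14 CPM and KRT5 at 0.305 to 19.1 CPM. KRT7, GATA3 and CDH1 reached 1.85, 1.44 and 1.11 CPM. The libraries differed in RNA make-up. 7SL, the RNA scaffold of the signal recognition particle, took 12.9%, 25.6% and 3.89% of the counts in regular-medium replicates 1 to 3, and 2.73%, 11.3%, 2.64% and 2.67% in CSM replicates 1 to 4. Transcripts annotated as retaining an intron took 4.77%, 3.14% and 7.11%, against 8.88%, 6.38%, 7.52% and 6.82%. The plot of RNA classes shows that regular-medium replicate 2 stood at 1 end of each measure, while replicate 3 lay within or near the range of the CSM libraries. The part of this make-up in the differences below was not tested beyond the fits that are named. Mouse transcripts are not in the tables, and summed human counts for 6 lists of host markers overlapped between the groups or lay lower after CSM. Fibroblast and pericyte markers summed to 55.0 to 62.2 CPM in regular medium and 36.4 to 57.0 CPM after CSM, endothelial markers to 52.6 to 59.5 against 40.1 to 44.4 CPM, and myeloid and leukocyte markers to 70.7 to 93.6 against 46.0 to 109 CPM. CLDN5, AIF1, TYROBP, CKM, DES and HBB, markers of endothelium, myeloid cells, muscle and red blood cells, were at 0 in all 7 libraries. The sums rest on few genes, as 7 of 13, 7 of 10 and 11 of 14 markers of these 3 lists averaged under 1 CPM. In regular medium EGFL7 alone had 39.4 to 43.4 CPM and CD68 alone 60.1 to 85.2 CPM. These human counts do not measure cells of the mouse host, and their source was not tested. In such bulk tissue, fewer cells of a type and less RNA per cell cannot be told apart.

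**Figure D1:**
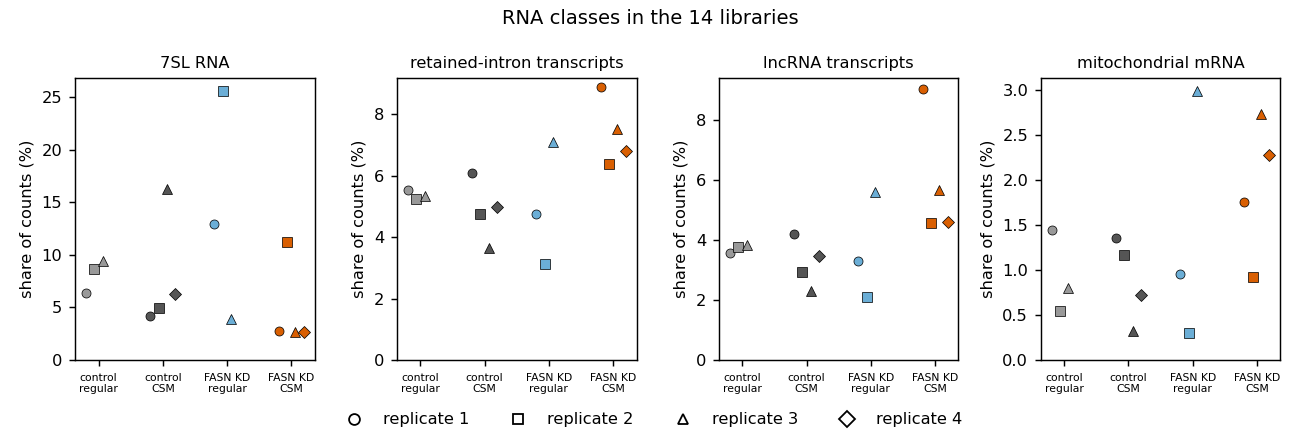
Share of all counts (%, vertical axes) on 7SL RNA, retained-intron transcripts, lncRNA transcripts and mitochondrial mRNA in each of the 14 libraries, by group, with a symbol for each replicate number. In regular-medium FASN knockdown replicate 2 the 7SL share is 25.6% and the retained-intron share 3.14%, while replicate 3 of that group, at 3.89% and 7.11%, lies close to the CSM libraries.

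FASN itself stood higher after CSM. Its levels were 121, 99.9 and 132 CPM in regular medium and 220, 166, 301 and 479 CPM in CSM replicates 1 to 4. The groups did not overlap, and the CSM libraries spread over a wider range than the regular-medium libraries. The control libraries had 571, 404 and 379 CPM in regular medium and 456, 479, 423 and 366 CPM after CSM. CSM replicate 4, labelled FASN knockdown, was thus at the control level for FASN, which goes against its label, so every direction below that rests on this group carries that limit. For 11 genes nearly absent from the knockdown libraries in earlier results of these data, its mean log2(CPM + 0.5) was -0.64. The other knockdown libraries ranged from -0.61 to -0.30 and the control libraries from 2.95 to 4.14. As this list was drawn from these same data for low levels in knockdown libraries, its value cannot check the label. Why FASN stood high in CSM replicate 4 was not tested. The mean was 117 CPM ± 16.1 (SD, n = 3) before and 291 CPM ± 137 (SD, n = 4) after CSM, a ratio of 2.48. The log2 fold change was 1.31 (SE 0.31, 95% interval 0.65 to 1.97), with an unadjusted p of 0.000685 by edgeR and an adjusted p of 0.568 (Benjamini-Hochberg, over 22560 genes). DESeq2 called it (adjusted p = 0.0292). Without CSM replicate 4 the log2 fold change was 0.98 (edgeR adjusted p = 0.745). An exact, two-sided permutation test over libraries gave p = 0.0571, the smallest value that 35 splits of 7 libraries allow. In control cells the log2 fold change of FASN with CSM was -0.07 (SE 0.30). The difference between both kinds of cells was 1.38 (SE 0.42, unadjusted p = 0.00525, edgeR adjusted p = 0.942). The gene (ENSG00000169710.9) is placed by RefSeq at chr17:82078338-82098236 on GRCh38.p14. Of its 13 annotated transcripts, the coding transcript ENST00000306749.4 held 92.3% to 96.8% of the gene's counts in every library, and the 3 retained-intron transcripts together 1.12% to 2.88%, with overlap between the groups.

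**Figure D2:**
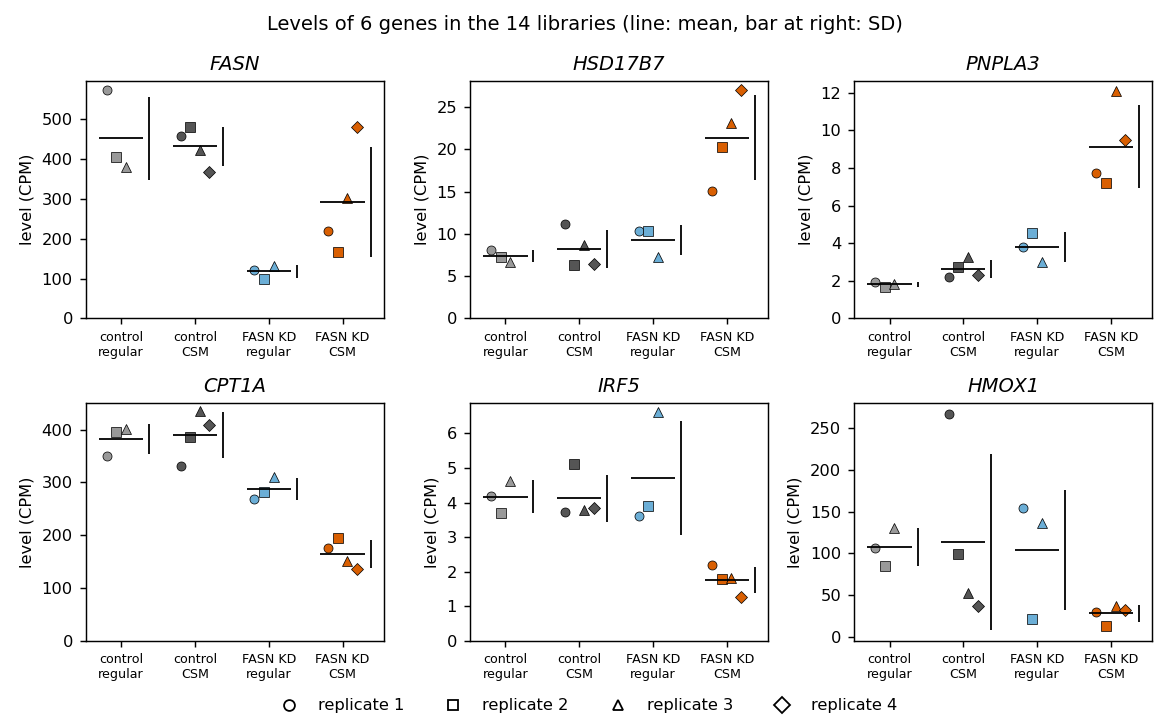
Level (CPM, linear axes) of FASN, HSD17B7, PNPLA3, CPT1A, IRF5 and HMOX1 in each of the 14 libraries. Symbols give the replicate number, horizontal lines the group mean and bars at the right the SD. In FASN, HSD17B7 and PNPLA3 all 4 CSM knockdown libraries lie above the 3 regular-medium knockdown libraries, in CPT1A and IRF5 all 4 lie below, and in HMOX1 regular-medium replicate 2 lies among them.

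No gene passed the test over all genes in this comparison. In edgeR's quasi-likelihood test 0 of 22560 genes (0%) had an adjusted p below 0.05, the smallest being 0.291. At an unadjusted p below 0.05 there were 960 genes higher after CSM (4.26% of those tested) and 544 lower (2.41%). The groups did not overlap for 998 genes that stood higher (4.42%) and 336 that stood lower (1.49%). DESeq2 called 52 of 22077 genes (0.236%), 42 higher and 10 lower, and for 48 of these the groups did not overlap. In control cells 0 genes were called by edgeR, 316 had an unadjusted p below 0.05 (1.40%) and DESeq2 called 6. The interaction, which is the CSM effect in knockdown cells minus that in control cells, had 0 calls by edgeR, 1178 genes with an unadjusted p below 0.05 (5.22%) and 7 calls by DESeq2. The genes below are therefore described by their levels and intervals, and "higher" and "lower" refer to the estimates. Across the 22560 genes, the CSM fold changes in knockdown and in control cells, which share no library, had the same sign for 44.2% and a Pearson correlation across genes, which are not independent, of -0.05. On the log2(TPM + 1) scale the median of all genes moved by 0.59 with CSM, 5504 genes stood higher and 21 lower at an unadjusted p below 0.05 with limma, and 7SL took 25.4% to 69.1% of all TPM in regular medium and 17.9% to 54.8% after CSM. TPM results are therefore given relative to that median. Because of the added 1, genes of few counts shift little on this scale, so subtracting the median pushes them down. SPANXA1, with 0 counts in all 7 knockdown libraries, stood at -0.59.

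Protein-coding genes and other genes were distributed differently. Of 14519 protein-coding genes, 338 stood higher and 434 lower at an unadjusted p below 0.05, with a median log2 fold change of -0.08. Of 8041 other genes, mostly long non-coding RNAs and pseudogenes, 622 stood higher and 110 lower, with a median of 0.26. In control cells the same 8041 genes had 24 higher and 84 lower and a median of -0.08. DESeq2's calls fell the same way, with 10 higher and 10 lower among protein-coding genes and 32 higher and 0 lower among the others. The median of the other genes ranged from 0.13 to 0.73 over the fits without 1 library, the highest without regular-medium replicate 3. It was 0.04 with the 7SL share as a covariate, -0.07 with the retained-intron share as a covariate and -0.18 on the TPM scale relative to all genes. As genes of few counts are pushed down on that scale, the last value gives no direction.

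**Figure D3:**
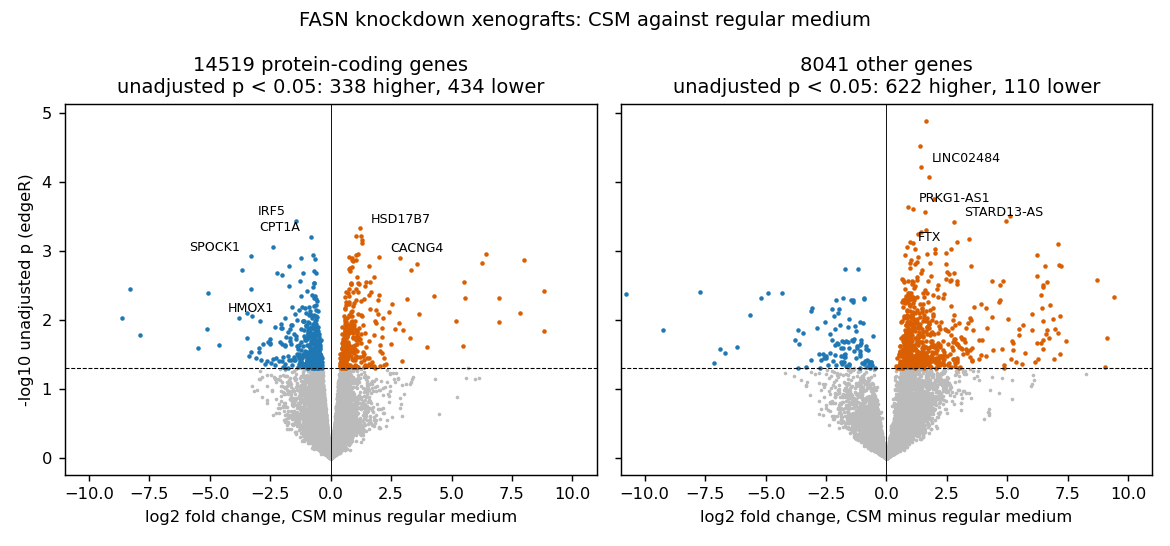
Log2 fold change, CSM minus regular medium in FASN knockdown cells (horizontal), against -log10 of the unadjusted edgeR p (vertical), for protein-coding genes (left) and other genes (right). The dashed line marks an unadjusted p of 0.05. Among protein-coding genes 338 points lie above it on the higher side and 434 on the lower side, and among other genes 622 and 110.

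HSD17B7, which reduces a ketone in the late steps of cholesterol synthesis, had the smallest p among the protein-coding genes that stood higher at a mean of at least 2 CPM without overlap. Its levels were 10.3, 10.3 and 7.28 CPM in regular medium and 15.1, 20.3, 23.1 and 27 CPM after CSM. The groups did not overlap, and the CSM libraries were also above all 7 control libraries (6.37 to 11.2 CPM). The log2 fold change was 1.20 (SE 0.27, interval 0.62 to 1.78, unadjusted p = 0.000468, edgeR adjusted p = 0.568, DESeq2 adjusted p = 0.0206), and it was 1.09 without CSM replicate 4. HSD17B7 has a near-identical pseudogene, so reads of both may be split with error. PNPLA3, a lipase of lipid droplets that SREBP1 induces, had 3.82, 4.57 and 3 CPM in regular medium and 7.72, 7.21, 12.1 and 9.47 CPM after CSM. Its log2 fold change was 1.27 (SE 0.30, edgeR adjusted p = 0.568, DESeq2 adjusted p = 0.0139). In control cells PNPLA3 stood at 0.53 on the same scale, and the interaction of 0.74 had an unadjusted p of 0.0904.

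HSD17B7 and CPT1A were the sterol and oxidation genes with the smallest p, and their sequences before the start site are shown because both were looked up for the core motif of the aryl hydrocarbon receptor. The windows are the 250 bases before the RefSeq start on GRCh38.p14, HSD17B7 at chr1:162790452-162790701 (plus strand) and CPT1A at chr11:68844278-68844527 (minus strand), written 5′ to 3′ on the gene's strand with matches of GCGTG on either strand in capitals.
HSD17B7: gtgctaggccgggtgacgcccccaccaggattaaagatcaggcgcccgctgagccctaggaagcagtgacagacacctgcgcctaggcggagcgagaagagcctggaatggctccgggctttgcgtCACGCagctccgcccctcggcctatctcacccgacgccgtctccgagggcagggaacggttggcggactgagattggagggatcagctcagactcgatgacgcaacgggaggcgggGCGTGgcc
CPT1A: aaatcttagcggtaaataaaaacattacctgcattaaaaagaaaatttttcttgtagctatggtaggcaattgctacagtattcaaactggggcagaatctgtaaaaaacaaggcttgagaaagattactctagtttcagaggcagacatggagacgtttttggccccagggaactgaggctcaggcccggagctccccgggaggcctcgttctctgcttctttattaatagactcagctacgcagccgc
HSD17B7 held 2 matches of GCGTG and CPT1A none. Each window lies directly outside the outer end of the gene in RefSeq, so start sites further inside either gene were not covered. The motif was common: 49.2% of 11613 promoters of tested protein-coding genes held it, as did 50.4% of 270 promoters of genes higher and 45.4% of 346 promoters of genes lower at an unadjusted p below 0.05. TGACNNNGC, the core of NRF2 sites, was in 14.6%, 12.2% and 15.6% of these promoters, and TCACNCCAC, a sterol regulatory element, in 1.15%, 1.85% and 0.578%. Of the 18 promoters of the cholesterol list found in the table, 15 held GCGTG and 1 each held the other motifs. FASN and PNPLA3 were not matched. A match describes letters in a window and not a bound site.

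Genes of sterol and fatty acid synthesis stood higher together in their estimates. Of 24 tested genes of cholesterol synthesis and SREBP2 targets, 21 were positive, and the median log2 fold change was 0.51, against -0.02 for all tested genes. At an unadjusted p below 0.05, 4 stood higher and 0 lower, against 4.26% and 2.41% of all genes. They were HSD17B7, the mevalonate kinase MVK, the mevalonate decarboxylase MVD and the lanosterol synthase LSS, at 1.20, 0.93, 0.81 and 0.64 on the log2 scale. MVD had 41.2, 52.1 and 23.9 CPM in regular medium and 52.8, 68.8, 71.4 and 81 CPM after CSM, so its groups came close without overlap. MVK had 24.7, 40.6 and 26.7 CPM and then 40.5, 45.6, 68.2 and 78.1 CPM, with CSM replicate 1 level with regular-medium replicate 2. The squalene epoxidase SQLE had a smaller estimate of 0.27 (SE 0.39), and the regulators SREBF2 and INSIG1 stood at 0.57 and 0.55.

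The mean log2(CPM + 0.5) of the cholesterol list was 6.40, 6.75 and 5.21 in regular medium and 6.16, 6.66, 6.89 and 7.14 after CSM. Regular-medium replicate 3 was low and the other two lay within the CSM range. The median log2 fold change was 0.25 without regular-medium replicate 3, 0.76 without replicate 2 and 0.33 without CSM replicate 4, and 0.99 on the TPM scale relative to all genes. In control cells the same list had 24 of 24 members positive and a median of 0.33, and the median interaction was 0.09, with 1 gene at an unadjusted p below 0.05 for it.

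Fatty acid synthesis had 15 of 19 tested genes positive and a median of 0.29, with 4 higher and 0 lower at an unadjusted p below 0.05. Of all tested genes 48.4% were positive and 4.26% stood higher at that p, and of protein-coding genes 39.6% and 2.33%. Beside FASN these were the acetyl-CoA carboxylase ACACA, which makes malonyl-CoA, the acetyl-CoA synthetase ACSS2 and SREBF1, the gene of SREBP1. ACACA had 244, 262 and 121 CPM and then 275, 345, 292 and 372 CPM, or 0.62 on the log2 scale (SE 0.27, adjusted p = 0.732 by edgeR). ACSS2 had 49.9, 87.5 and 50.5 CPM and then 62.1, 75.4, 124 and 144 CPM, with overlap and a log2 fold change of 0.69 (SE 0.28). SREBF1 stood at 0.67 (SE 0.29), the desaturase SCD at 0.71 (SE 0.49) and the citrate lyase ACLY at 0.17 (SE 0.29). The list's median stayed between 0.20 and 0.40 in the fits without 1 library. In control cells 15 of 19 were also positive, with a median of 0.21. LPIN1, a phosphatidate phosphatase of lipid synthesis, had 159, 200 and 94.1 CPM in regular medium and 199, 263, 311 and 562 CPM after CSM. Its highest value was in CSM replicate 4, and the log2 fold change of 1.14 (SE 0.34) became 0.79 without that library. The whole phospholipid and sphingolipid list, LPIN1 included, had a median of -0.02 over 26 genes.

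CPT1A and several genes of fatty acid oxidation stood lower. CPT1A had 269, 281 and 310 CPM in regular medium and 175, 195, 151 and 136 CPM after CSM, against 331 to 435 CPM in the 7 control libraries. The CSM libraries were all below the regular-medium libraries, these were all below the control libraries, and the spread within each knockdown group was small. The mean was 287 CPM ± 21.5 (SD, n = 3) and then 164 CPM ± 26.3 (SD, n = 4), a ratio of 0.573. The log2 fold change was -0.80 (SE 0.19, interval -1.20 to -0.40, unadjusted p = 0.000625, edgeR adjusted p = 0.568, DESeq2 adjusted p = 0.0048), -0.71 without CSM replicate 4 and -0.40 on the TPM scale relative to all genes. In control cells it was 0.03, and the interaction was -0.83 (SE 0.27, unadjusted p = 0.007, edgeR adjusted p = 0.942). PPARGC1A, a coactivator of mitochondrial and oxidative genes, had 79 counts over the 3 regular-medium libraries and 14 over the 4 CSM libraries, at 1.37, 1.44 and 0.669 CPM and then 0.148, 0.103, 0.168 and 0 CPM. Its level was far lower than in most control libraries, which ranged from 0.815 to 46.4 CPM. ACAA2, the last enzyme of the oxidation spiral, overlapped between the groups (log2 fold change -0.61, SE 0.26). Of the 25 tested genes of the list, 20 were negative, with 0 higher and 3 lower at an unadjusted p below 0.05 and a median of -0.23, which was -0.02 on the TPM scale relative to all genes. Among all 14519 protein-coding genes 8770 were negative, and 2.33% stood higher and 2.99% lower at that p. The enzymes HADHA and ACADVL stood at -0.21 and -0.28, and CPT2 and CPT1C at -0.04 and -0.05. In control cells 21 of the 25 were positive (median 0.25), and 5 had an interaction at an unadjusted p below 0.05, which 5.22% of all genes had.

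The other protein-coding genes that stood higher without overlap were named by smallest p at a mean of at least 2 CPM. They were FANCL, GJB7, SEPTIN5, WDR27, FAM241A, CACNG4, TMEM45A, CEP43 and FRK, with log2 fold changes of 0.77 to 2.01 and edgeR adjusted p of 0.568 each. FANCL, the ubiquitin ligase of the Fanconi anaemia pathway, had 55.6, 27.7 and 54.1 CPM and then 125, 92.9, 84.2 and 80.5 CPM. FANCA, of the same pathway, had a log2 fold change of 0.64 (SE 0.25) with overlap, while the list of 28 DNA repair genes was centred at -0.05. CACNG4, a regulatory subunit of calcium channels and AMPA receptors, had 1.68, 0.678 and 0.64 CPM and then 2.54, 2.33, 6.76 and 4.76 CPM, the largest of these changes and at low counts. FRK, a Src-family kinase, had 23.8, 16.9 and 17 CPM and then 57.9, 39, 33.6 and 27.9 CPM. The centrosomal gene CEP43 had 59.4, 26.8 and 45.1 CPM and then 87, 82.9, 82.2 and 71.1 CPM. In control cells these 9 genes had log2 fold changes of -0.23 to 0.27.

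The 12 protein-coding genes that stood lower, named by the same rule, are CPT1A and those that follow. IRF5, an interferon regulatory factor of innate immunity, had 3.61, 3.9 and 6.61 CPM in regular medium and 2.19, 1.78, 1.82 and 1.26 CPM after CSM. Every CSM library was below the 7 control libraries too (3.69 to 5.13 CPM). The log2 fold change was -1.42 (SE 0.31, unadjusted p = 0.000365, edgeR adjusted p = 0.568, DESeq2 adjusted p = 0.00894). MR1, which presents vitamin B metabolites to T cells, had 10.7, 19.9 and 27.8 CPM and then 10.3, 9.4, 8.19 and 5.79 CPM. STEEP1, which takes part in the export of the sensor STING from the endoplasmic reticulum, had 41.9, 53.5 and 47.5 CPM and then 29.4, 31.6, 29.5 and 29.6 CPM, and the cytokine gene IL19 had 4.41, 15.6 and 5.27 CPM and then 2.07, 3.66, 2.44 and 2.09 CPM. IL19 had a similar estimate in control cells (-1.57) as in knockdown cells (-1.71), and the interaction had an unadjusted p of 0.837. CHMP1B, of the ESCRT membrane machinery, had a log2 fold change of -0.68 and the lipid kinase PIP4K2C of -0.59. The pro-apoptotic gene MOAP1 stood at -0.74, the secreted factor EGFL7, also an endothelial marker, at -0.68, the kinase inhibitor PKIG at -0.67 and the transcription initiation factor TAF13 at -1.15. The proteoglycan gene SPOCK1 had 9.46, 2.46 and 0.669 CPM and then 0.386 to 0.503 CPM, so its mean in regular medium rested on replicate 1. On the TPM scale relative to all genes these 12 genes, CPT1A among them, were between -1.45 and -0.23. For the low genes among them, such as IRF5, SPOCK1 and IL19, that scale gives no direction.

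Non-coding RNAs held the smallest p-values of the comparison. Those named here were chosen after their values were seen, and without known strand their reads cannot be told apart from those of overlapping genes. ENSG00000271533 had 5.4, 3.47 and 3.38 CPM in regular medium and 12.1, 12.4, 13.6 and 12.5 CPM after CSM, with control libraries at 5.42 to 9.55 CPM. Its 4 CSM values lay closer together than those of most genes named here. The log2 fold change was 1.63 (SE 0.26, unadjusted p = 1.29e-05, edgeR adjusted p = 0.291, DESeq2 adjusted p = 2.15e-06), and the interaction was 1.87 (unadjusted p = 7.79e-05, edgeR adjusted p = 0.863). ENSG00000271204 had 7.11, 4.24 and 5.97 CPM and then 14.8, 13.4, 16.3 and 15.4 CPM. LINC02484 had 6.52, 4.57 and 6.17 CPM and then 18.6, 12.5, 18.9 and 12.8 CPM. Among more abundant RNAs, PRKG1-AS1 had 55.7, 50.7 and 54.1 CPM and then 120, 92.8, 107 and 75.1 CPM, and FTX, a non-coding gene of the X-inactivation centre, had 79.1, 53.5 and 94.4 CPM and then 143, 135, 140 and 121 CPM. LINC-PINT, a p53-induced RNA, had 117, 46.5 and 72.5 CPM and then 119, 137, 168 and 224 CPM. MALAT1, the abundant nuclear RNA, overlapped between the groups at 4970 to 12400 CPM and 10800 to 34300 CPM, with 34300 CPM in CSM replicate 1, which also had the highest retained-intron share.

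Interferon-stimulated and antigen presentation genes stood lower in their estimates with overlap between the groups. Of 28 tested genes 27 were negative, with a median of -0.73, and at an unadjusted p below 0.05 there were 0 higher and 5 lower. Among all 14519 protein-coding genes 8770 were negative, and 2.33% stood higher and 2.99% lower at that p. The 5 lower genes included HLA-B, HLA-C, B2M, the shared light chain of HLA class I, and BST2, which tethers budding viruses. B2M had 477, 582 and 155 CPM in regular medium and 107, 277, 223 and 128 CPM after CSM, and BST2 had 32.8, 60.4 and 4.25 CPM and then 3.55, 15.4, 10.2 and 1.04 CPM. Regular-medium replicate 3 lay within the CSM range in both. Reads of the HLA genes may be split between similar copies. The mean log2 level of the list was 6.84, 7.09 and 5.74 in regular medium and 5.35, 6.45, 6.49 and 4.69 after CSM. The median was -0.44 without CSM replicate 4, -0.46 on the TPM scale relative to all genes, -0.12 with the 7SL share as a covariate and -0.46 in control cells.

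**Figure D4:**
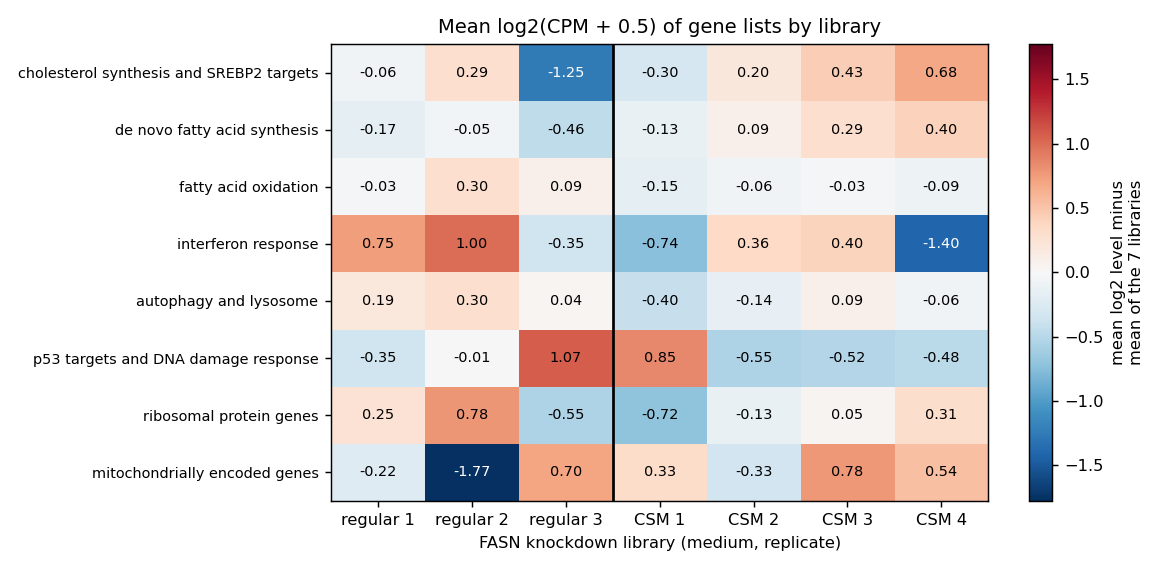
Mean log2(CPM + 0.5) of 8 gene lists in the 7 FASN knockdown libraries, each minus the mean of that list over the 7 libraries, with the value in each cell and colour from blue (low) to red (high). Regular-medium replicate 3 is lowest for cholesterol synthesis, CSM replicate 4 is lowest for interferon response, and regular-medium replicate 3 and CSM replicate 1 are the highest for p53 targets.

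In the fit of all 14 libraries, the medians of nuclear and mitochondrial genes of respiration differed in sign. Among nuclear genes of oxidative phosphorylation, 42 of 48 tested had a negative estimate (median -0.27), with 0 higher and 4 lower at an unadjusted p below 0.05. Among all protein-coding genes 8770 of 14519 were negative, and 2.33% stood higher and 2.99% lower. The median of the list was -0.02 without regular-medium replicate 2, -0.12 without CSM replicate 1 and -0.44 without regular-medium replicate 3. Relative to all genes on the TPM scale the median was 0.11, and it was 0.15 with the 7SL share as a covariate, so the sign was not the same in every fit. COX6B1, a subunit of complex IV, had 76.7, 104 and 86.6 CPM and then 58.7, 64.1, 69.6 and 70.4 CPM, the member whose groups did not overlap. All 13 mitochondrially encoded genes were positive (median 0.39), with 1 higher and 0 lower. Their median was -0.01 without regular-medium replicate 2 and -0.35 with the 7SL share as a covariate, so its sign also varied between fits. It was 1.30 without regular-medium replicate 3 and 1.11 on the TPM scale relative to all genes. The mean level of this list overlapped between the groups. MT-ND3, of complex I, had 45.8, 21 and 43.1 CPM and then 73.4, 69.1, 58.4 and 44.5 CPM. Ribosomal protein genes had 49 of 63 negative, a median of -0.32 and 0 higher and 4 lower, but the median was 0.08 on the TPM scale relative to all genes and 0.01 with the 7SL share as a covariate. It was -0.04 without regular-medium replicate 2, -0.10 without CSM replicate 1, -0.48 without regular-medium replicate 3 and -0.50 without CSM replicate 4. RPS14, which has processed copies, ranged from 388 to 6190 CPM in regular medium, wider than its range of 572 to 1800 CPM after CSM. In control cells 46 of 48 oxidative phosphorylation genes and 62 of 63 ribosomal protein genes were positive, with medians of 0.32 and 0.31.

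Genes of the lysosome and autophagy had 15 of 19 members negative and a median of -0.42 (-0.01 on the TPM scale relative to all genes). At an unadjusted p below 0.05, 0 stood higher and 5 lower. Among all 14519 protein-coding genes 8770 were negative, and 2.33% stood higher and 2.99% lower at that p. The hexosaminidase gene HEXA had 81.1, 97.2 and 69.9 CPM and then 51, 64.3, 67.9 and 56.7 CPM without overlap. The galactosidase gene GLA and the membrane protein gene LAMP2 overlapped (log2 fold changes -0.62 and -0.53). Cholesterol efflux and LXR target genes had 10 of 12 negative (median -0.37), with 0 at an unadjusted p below 0.05 in either direction. ABCA1, the main exporter of cholesterol, had 8.44, 19.1 and 15.4 CPM and then 10.7, 11.6, 6.23 and 3.43 CPM.

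The lists that smoke would be looked up for showed no gene past the test. CYP1A1 and CYP1B1, the classical targets of the aryl hydrocarbon receptor, had at most 2 and 3 counts in any of the 7 libraries and were too low to be tested. The receptor's gene AHR was at 1.27 to 2.21 CPM. AHRR, its repressor, had 1.16, 1.27 and 0.844 CPM and then 2.6, 2.33, 0.786 and 1.16 CPM, with overlap. Of the 9 tested targets 5 were positive (median 0.04), with 0 higher and 0 lower at an unadjusted p below 0.05. NRF2 targets had 9 of 28 positive (median -0.18, but 0.18 on the TPM scale relative to all genes), with 0 higher and 3 lower, where 39.6% of all protein-coding genes were positive and 2.99% stood lower. The median was -0.04 without CSM replicate 1, -0.05 without regular-medium replicate 2, -0.33 without regular-medium replicate 3 and -0.31 without CSM replicate 4. HMOX1, which degrades haem, had 154, 21.9 and 137 CPM and then 29.7, 13.4, 37.6 and 32.4 CPM, so regular-medium replicate 2 lay among the CSM libraries (log2 fold change -1.88, SE 0.63, edgeR adjusted p = 0.679). In the control libraries HMOX1 ranged from 37.2 to 267 CPM after CSM. NQO1, another target, was at 73.7 to 155 CPM in regular medium and 82.8 to 130 CPM after CSM.

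The p53 list depended on single libraries. Its mean log2 level was 4.44, 4.78 and 5.86 in regular medium and 5.64, 4.24, 4.27 and 4.31 after CSM, so regular-medium replicate 3 and CSM replicate 1 stood apart from the other 5. The median log2 fold change of its 21 genes was -0.26, but 0.22 without regular-medium replicate 3 and -0.87 without CSM replicate 1. BAX, a pro-apoptotic target, had 46, 56.9 and 179 CPM and then 93.4, 28.3, 45.8 and 51.6 CPM. The median of the hypoxia list also took another sign without single libraries. It was -0.28 over 17 genes, 0.26 without regular-medium replicate 1 and 0.05 without CSM replicate 4. Proliferation genes were centred near 0, with medians of 0.07 for 23 genes of replication licensing and -0.07 for 22 genes of mitosis. Heat shock genes (14, median -0.12), unfolded protein and integrated stress response genes (22, median -0.28), glycolysis genes (19, median -0.18) and NF-kB targets (16, median 0.21) had 0 genes each at an unadjusted p below 0.05.

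**Figure D5:**
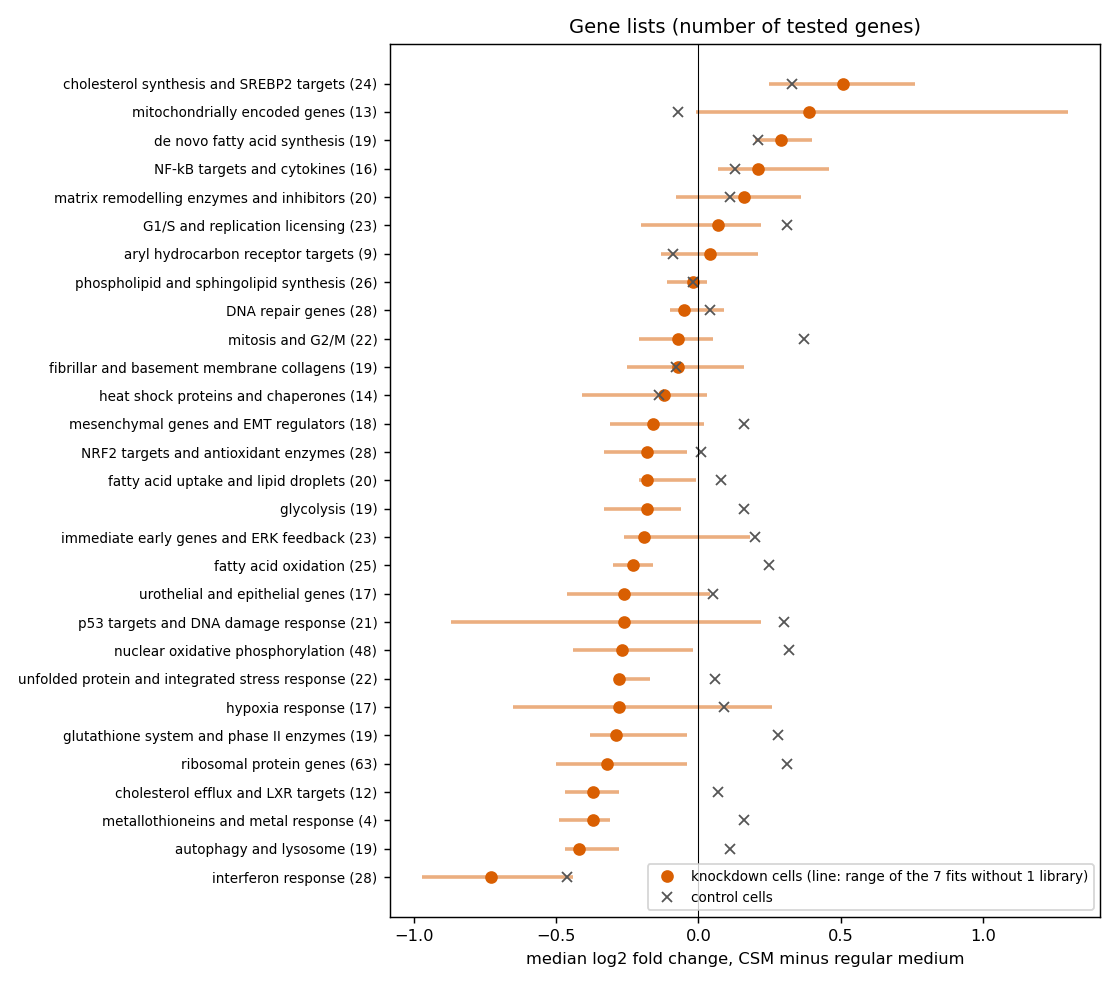
Median log2 fold change, CSM minus regular medium, of each gene list (number of tested genes in brackets) in FASN knockdown cells (filled circles, with lines for the range over the 7 fits without 1 library) and in control cells (crosses). Cholesterol synthesis is highest at 0.51 and the interferon response lowest at -0.73, and the line of the p53 list runs from -0.87 to 0.22.

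Of 19 tested collagens 1 stood higher and 1 lower at an unadjusted p below 0.05, as did 1 and 1 of 20 matrix remodelling genes, of which 2 stood higher without overlap (4.42% of all tested genes did). At that p 4.26% of all tested genes stood higher and 2.41% lower. The stromelysin gene MMP3 had 0.105, 0 and 0.0291 CPM in regular medium and 0.296, 0.137, 0.617 and 0.305 CPM after CSM, from 4 and 51 counts in all. Its groups did not overlap, and the log2 fold change was 2.65 (SE 0.95, edgeR adjusted p = 0.683). TIMP2, an inhibitor of such proteases, overlapped and stood at -0.48 (SE 0.23). ADAMTSL1, a matrix protein, ranged from 1.57 to 8.41 CPM and from 2.02 to 30.9 CPM, with the top value in CSM replicate 4. The median of the 20 genes was 0.16, and it was -0.08 without regular-medium replicate 2 and -0.06 without regular-medium replicate 3. COL5A1, a fibrillar collagen chain, had 13.6, 9.32 and 9.66 CPM and then 28.8, 9.16, 26.7 and 15.4 CPM, a log2 fold change of 0.88 (SE 0.32) where CSM replicate 2 stayed at the regular-medium level. The control libraries had 27.3 to 55.7 CPM. CCN1 and CCN2, matricellular genes downstream of YAP, stood at -0.88 and -1.12 with overlap. ACTA2, smooth muscle actin, had 33.3, 25.1 and 31.9 CPM and then 18.8, 26.2, 15.2 and 8.01 CPM. KRT8 stood at -0.53 (SE 0.19) with overlap. The list of 19 collagens was centred at -0.07 and that of 18 mesenchymal genes at -0.16.

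Of 11 tested genes that were nearly absent from the FASN knockdown libraries in earlier results of these data, 1 stood higher and 1 lower at an unadjusted p below 0.05, and both had groups without overlap. Of all tested genes 4.26% stood higher and 2.41% lower at that p, and 4.42% and 1.49% did so without overlap. The lower gene was PPARGC1A, whose values are given above. The higher was GULP1, an adaptor for the engulfment of dying cells, with 2 counts over the 3 regular-medium libraries and 54 over the 4 CSM libraries, or 0.0701, 0 and 0 CPM and then 0.503, 0.376, 0.112 and 0.447 CPM (unadjusted p = 0.00153, edgeR adjusted p = 0.568). The groups of the other members overlapped or, for SPANXA1, held no counts. AJAP1 was at 0.204 to 0.701 CPM in regular medium and 0.224 to 0.617 CPM after CSM. LPAR1 was at 0 to 0.666 CPM and 0.237 to 0.337 CPM, TRPC4 at 0 to 0.175 CPM and 0 to 0.177 CPM, and SPANXA1 had 0 counts throughout. SPANXB1 was at 0.262 to 0.339 CPM and 0.325 to 1.5 CPM, with the top value in CSM replicate 2. CSM replicate 4, the library with FASN at the control level, had 0.224 CPM of AJAP1 and 0.285 CPM of LPAR1. The control libraries had 21.1 to 64.5 CPM of AJAP1 and 10.5 to 27.8 CPM of LPAR1. Both genes were chosen for low levels in knockdown libraries of these data, so their values cannot check the label of CSM replicate 4. SPANX copies are near-identical, so the assignment of their reads is uncertain.

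By smallest unadjusted p of the interaction, the genes whose CSM effect differed most between knockdown and control cells were STON2, ANAPC15, AGAP2 and PKIG on the lower side. STON2, an endocytic adaptor, had 0.184 to 0.746 CPM in control cells from regular medium and 3.23 to 9.91 CPM after CSM, and 1.69 to 3.64 CPM and 1.08 to 1.92 CPM in knockdown cells. The control groups did not overlap and the knockdown groups did. Its interaction was -4.33 (SE 0.72, unadjusted p = 2.23e-05, edgeR adjusted p = 0.503). ANAPC15, a subunit of the anaphase-promoting complex, had log2 fold changes of 0.77 in control and -0.40 in knockdown cells. The interactions of AGAP2 and PKIG were -2.67 and -0.96. On the higher side stood ENSG00000271533, ENSG00000271204, ENSG00000280145, STARD13-AS and ENSG00000261786, all non-coding. STARD13-AS had 0.245, 0.0847 and 0.116 CPM in knockdown cells from regular medium and 0.769, 0.752, 0.982 and 1.87 CPM after CSM, and its log2 fold change was -0.93 in control cells.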

How the data were processed

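RNA of xenograft tissue was measured in 14 libraries. Per the labels' protocols, total RNA was isolated from frozen tissue with a column kit. The submitters' processing notes name FastQC, cutadapt and Salmon with GRCh38. Tool versions, strand and annotation release were not given in the sources used here. For 252048 human transcripts in each library the authors deposited expected counts, which are Salmon's raw estimates of reads, together with TPM and the full and effective length, per the file headers.

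The expected counts were summed to 62749 genes and rounded. All 14 libraries entered a single fit with edgeR 4.0.16 (R 4.3.3), with TMM factors, filterByExpr (minimum count 10, minimum total 15), 4 group coefficients and 10 residual degrees of freedom, and a quasi-likelihood test with Benjamini-Hochberg adjustment over 22560 genes at 0.05. The biological coefficient of variation was 0.444. Levels are CPM on TMM-scaled totals, and 95% intervals and SE come from the fit. Limits of depth are those of counting error and of the spread between libraries, which the test includes. Gene lists were described by counts and medians without a set test. List levels are means of log2(CPM + 0.5). Positions and promoters are from RefSeq (GRCh38.p14). Positions were matched by Ensembl gene identifier, or by symbol where that was absent, and promoters by symbol.

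Named genes were FASN, on each side the 12 protein-coding genes of smallest p whose groups did not overlap and whose mean reached 2 CPM (the rule where none was called), the leading members of each list, and the 5 genes on each side with the smallest interaction p. ENSG00000274944, named by that rule on the lower side, had counts in only 1 of the 7 knockdown libraries and is not described. Some list members are not reported here. Members, lists and rules were chosen with earlier results of these data known.

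Alternatives were DESeq2 1.42.0, other scaling factors, other filters on low counts, protein-coding genes alone, removal of 7SL, knockdown libraries alone, a replicate block, a length offset, limma 3.58.1 on log2(TPM + 1), a 7SL covariate, omission of libraries with over 15% 7SL, a minimum fold change for calls, and the omission of each library. Chosen after seeing the data, a retained-intron covariate and the joint omission of regular-medium replicate 2 and CSM replicate 4 were also run. The fit was tested on simulated data.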

Additional observations from a re-analysis of the deposited data

Results flagged for a closer look

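In 7 places a single library of the 4 labelled FASN knockdown after CSM stood apart from the other 3 by Dixon's test at the 95% level. Chance flags about 1 in 20 such groups, and many groups were examined. CSM replicate 2 was the highest in 3 of them, with 31.6 CPM of STEEP1 against 29.4 to 29.6 in the others, 44.3 CPM of TAF13 against 24.5 to 26.5, and 11.3% of counts on 7SL against 2.64% to 2.73%. CSM replicate 1 was the highest for p53 targets, with a mean log2 level of 5.64 against 4.24 to 4.31, and the lowest for ENSG00000280145, with 4.08 CPM against 7.72 to 8.21. CSM replicate 4 was the lowest for collagens, with a mean log2 level of 2.44 against 2.96 to 3.00, and the highest for AKR1C1, at 0.224 CPM against 0 to 0.0296, which are levels of few counts.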

How the results depend on the processing

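In knockdown cells edgeR and limma called 0 genes under all alternatives run except 3 with the 7SL share as a covariate, 1 with the retained-intron share as a covariate and 175 with no filter on low counts, and DESeq2 called 52. Of the 175 genes, 163 were tested with the filter, 109 of them at an unadjusted p below 0.05, and 23 were shared with DESeq2's calls (13.1% of the 175 and 44.2% of the 52). The interaction had 7 calls by DESeq2 and 121 with no filter, and control cells had 6 by DESeq2, 62 with no filter and 1 with the 7SL share as a covariate. FASN passed the threshold with DESeq2 (1.30, adjusted p = 0.0292) and with no filter (1.34). Without 1 library its log2 fold change ranged from 0.98 (without CSM replicate 4) to 1.50, and the difference in the exact permutation test from 0.93 to 1.44 (p of 0.1 to 0.133, the smallest those splits allow). It was 0.84 without regular-medium replicate 2 and CSM replicate 4 together. The number of genes at an unadjusted p below 0.05, 1504, was 4715 without regular-medium replicate 3, 924 without regular-medium replicate 2, 1162 without CSM replicate 4, 747 without the latter 2 libraries together, 785 with knockdown libraries alone, 776 with protein-coding genes alone, 3184 with no filter, 2612 with the 7SL share (1310 higher, 1302 lower) and 3209 with the retained-intron share (1704 and 1505).

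Replicate numbers are shared between the groups. The deviations of same-numbered libraries from their group means correlated at -0.0365, 0.207 and 0.148, and those of differently numbered libraries at -0.339 to 0.165. With so few libraries this cannot decide whether the numbers pair them. With a replicate block 0 genes were called in each of the 3 comparisons, 946 had an unadjusted p below 0.05 and FASN stood at 1.13 (adjusted p = 1.0 by edgeR).

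A tally of alternatives covered 77 of the 148 named genes. Of its 1677 values, 1599 kept their direction and their side of the threshold, and 44 passed it (22 with DESeq2 and 22 with no filter). The other 34, of 29 genes, changed sign. Named genes outside the tally changed sign too, among them BAX in 2 alternatives, LPAR1 in 5 and AJAP1 in 7. On log2(TPM + 1) with limma the median of all genes shifted by 0.59. Among named genes outside the 77, some that stood lower in edgeR lay above that shift, such as NUSAP1 at 0.94 and SLC16A1 at 0.91. Of the 77, 26 genes that stood lower had positive estimates. All 26 were below that shift, so relative to the median they stayed lower. These were CPT1A 0.19, MOAP1 0.16, STEEP1 0.35, EGFL7 0.26, PIP4K2C 0.30, PKIG 0.27, CHMP1B 0.26, EPHX1 0.53, RRM2B 0.45, SLC30A1 0.34, BNIP3L 0.41, ACAA2 0.20, CERS5 0.47, SDHC 0.23, COX6B1 0.50, NDUFB3 0.32, RPS19 0.17, RPS18 0.21, CCN1 0.10, KRT8 0.30, TIMP2 0.38, B2M 0.06, HEXA 0.29, GLA 0.36, LAMP2 0.55 and ANAPC15 0.52. With the retained-intron share as a covariate SDHC was at 0.19, NDUFB3 at 0.35, RPS14 at 0.81, RPS18 at 0.35 and BST2 at 0.16, and with the 7SL share NDUFB3 at 0.04 and RPS14 at 0.47. GDF15 ranged from -4.74 without CSM replicate 1 to 0.29 without regular-medium replicate 3. The cause of these changes with a covariate or a library was not tested. Of 789 values of 36 list medians, 102 moved beyond the spread between libraries. The depth of 15810287 to 42612442 counts leaves genes of few counts, CYP1A1 and CYP1B1 among them, untested.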
